A study of Yarrowia lipolytica with 3 samples.

Results

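The genes described here were those ordered with MHY1 in Yarrowia lipolytica, lowest in a strain without this gene and highest in a strain with extra MHY1. They were chosen from the measured values: a gene at 1 RPKM (reads scaled to gene length and library size) or more in any library had to exceed wild type by 2-fold or more in the MHY1 overexpression library and to lie below wild type by 2-fold or more in the mhy1 deletion library, on a log2(RPKM + 1) scale. This gave 106 genes besides MHY1 (YALI0B21582g), out of 6448 listed and 6035 at 1 RPKM or more. The data were 3 RNA-seq libraries of total RNA, 1 per strain: an MHY1-overexpressing strain, an mhy1Δ strain and the wild type, all with PO1a named as their source. Each culture held 50 ml of YNDC7 medium with added uracil, kept at 30 °C until its OD600 was 0.8. The sources used here do not say how MHY1 was overexpressed, how the deletion was marked or how many clones were used. With 1 library per strain there is no replicate check of any difference and no test. The intervals printed with ratios are 95% exact binomial intervals from recovered reads and cover counting error only.

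Yarrowia lipolytica is a dimorphic, oil-accumulating yeast that grows as round yeast cells or as hyphae. The MHY1 protein is a transcription factor of the C2H2 zinc-finger kind. It is needed for hyphal growth in this yeast and is known to bind the stress response element, a short promoter motif shared with the Msn2 and Msn4 factors of Saccharomyces cerevisiae. The deposited files name genes by identifier alone, so the genes below are called by their identifiers and no role is given for them. In these identifiers the letter after YALI0 stands for the chromosome and the number follows the order along it. A culture can hold yeast and hyphal cells, and RNA of the whole culture cannot tell a change in the share of a cell form from a change in RNA per cell.

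MHY1 was at 1159 RPKM in the overexpression library, at 0 in the deletion library and at 467 RPKM in wild type. Extra MHY1 was thus a 2.48-fold step over wild type (2.44 to 2.52). The totals implied by the values were 75306802 reads for overexpression, 59527000 for the deletion and 47622181 for wild type, so the wild-type library was the shallowest. Over the 6035 genes compared, the median log2 ratio of overexpression to wild type was 0.16 and that of the deletion to wild type −0.03, so the median gene was slightly higher in the overexpression library, while genes at 100 RPKM or more in wild type had a median of −0.03 there. After each ratio was centred on its median, 80 of the 106 genes still met both lines.

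**Figure D1:**
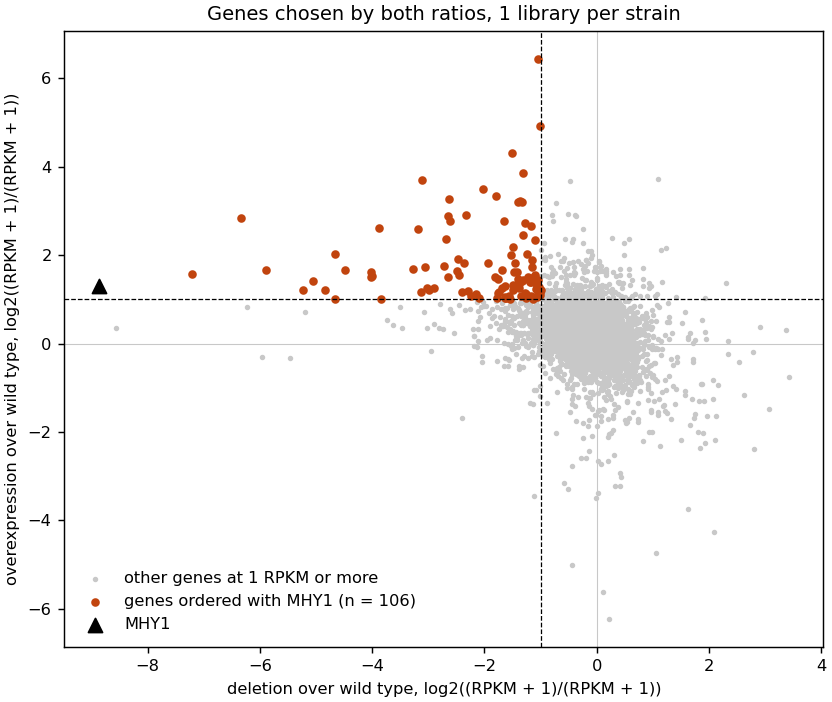
Log2 ratio of overexpression to wild type (vertical axis) against log2 ratio of deletion to wild type (horizontal axis), both on RPKM + 1, for the 6035 genes at 1 RPKM or more; dashed lines mark 2-fold. The 106 chosen genes fill the upper left corner by construction, 30 of them within 0.1 of a line, with MHY1 (triangle) at the far left.

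The 106 genes were weakly expressed in the deletion library and moderately expressed in the overexpression library. The rule chose them on these same values, so low ranks in the deletion and higher ranks in overexpression follow in part from the choice. Their median level was 59.8 RPKM in overexpression, 1.62 RPKM in the deletion and 11.8 RPKM in wild type, where the medians of all compared genes were 38.0, 31.6 and 34.1 RPKM. In rank, the median member stood at percentile 62.7 of the compared genes in overexpression, at percentile 7.04 in the deletion and at percentile 22.7 in wild type. Below 1 RPKM in the deletion were 39 of the 106 members, where 5.15% of compared genes were. The rule itself allowed no member below 1 RPKM in overexpression or wild type. In the top 5% of compared genes stood 10 members in overexpression, 0 in the deletion and 2 in wild type.

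Summed over the 106 genes, the RPKM made up 3.01% of the table's sum in overexpression, 0.192% in the deletion and 1.06% in wild type. More than any other member, YALI0F21428g carried this sum, at 11196 RPKM in overexpression, 628 RPKM in the deletion and 4683 RPKM in wild type. It ranked 2 of all 6448 identifiers in overexpression, 315 in the deletion and 13 in wild type. Without YALI0F21428g the shares were 1.90% in overexpression, 0.132% in the deletion and 0.606% in wild type.

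**Figure D2:**
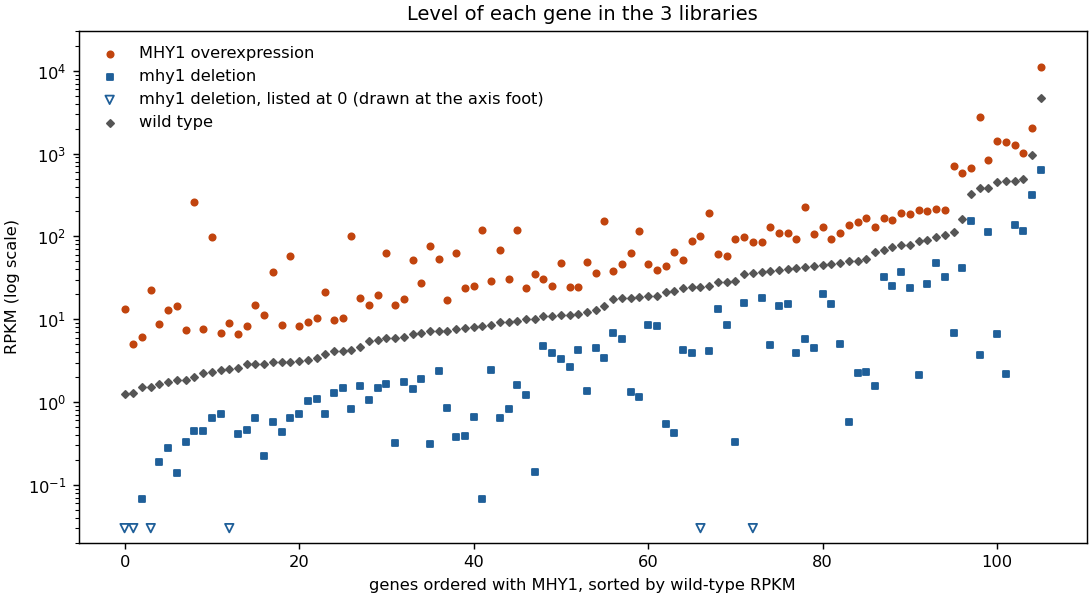
RPKM of each of the 106 genes (vertical axis, log scale) in the overexpression (circles), deletion (squares) and wild-type (diamonds) libraries, with the genes sorted along the horizontal axis by their wild-type value. Wild-type values span 1.25 to 4683 RPKM, and the 6 genes listed at 0 in the deletion library are drawn at the foot of the axis.

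The rule fixed the order of the libraries for every member, and what follows describes sizes and not support for that order. Of all compared genes, 5.98% exceeded wild type by 2-fold or more in overexpression, and 5.83% were below wild type by 2-fold or more in the deletion. At 4-fold, 26 members were higher in overexpression and 39 were lower in the deletion. All compared genes, members included, gave 51 (0.845%) and 79 (1.31%), out of 361 and 352 past 2-fold. The rule had already set every member past 2-fold, so a higher share than among all genes was likely from the start. Both steps reached 4-fold for 11 members. Between overexpression and deletion, a ratio that follows from the other 2, the median log2 ratio of the members was 3.33 and the smallest was 2.11. Here 15% of all compared genes were at least 2-fold higher in overexpression, and 4.46% at least 4-fold.

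Many members lay near the lines that chose them. Within 0.1 log2 of the line were 16 members on the overexpression side and 15 on the deletion side, 30 in all on either side. Nearest inside on the overexpression side was YALI0E06611g, at 39.3 RPKM in overexpression, 8.17 RPKM in the deletion and 19.1 RPKM in wild type. Nearest outside was YALI0D11858g, at 19.3, 3.67 and 9.17 RPKM in the same libraries. The log2 ratios of both rounded to 1.00, the line itself. On the deletion side the nearest inside was YALI0E11627g, at 6.88 RPKM in overexpression, 0.708 RPKM in the deletion and 2.42 RPKM in wild type, and the nearest outside was YALI0B22748g, at 7.23, 0.430 and 1.86 RPKM. Both are weak genes whose deletion ratios lay on the line when rounded. The other genes nearest inside had log2 ratios of 1.00 to 1.02 in overexpression (YALI0B21626g, YALI0E28548g, YALI0B09955g, YALI0D06996g) and of −1.02 to −1.03 in the deletion (YALI0F21659g, YALI0A17666g, YALI0C03608g, YALI0E02266g). The other genes nearest outside had log2 ratios of 0.99 to 1.00 in overexpression (YALI0B09009g, YALI0B03575g, YALI0C05511g, YALI0F01947g) and between −0.95 and the line in the deletion (YALI0C04730g, YALI0C21912g, YALI0D13574g, YALI0B22506g).

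The genes most clearly ordered with MHY1 were taken as the 10 whose smaller step, in log2(RPKM + 1), was largest. YALI0D12100g led them, at 120 RPKM in overexpression, 0.0668 RPKM in the deletion and 8.28 RPKM in wild type. Against wild type it was 14.5-fold higher in overexpression (13.4 to 15.8) and 124-fold lower in the deletion (56.6 to 339). The wide second interval reflects 6 reads in the deletion library, against 595 in wild type.

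YALI0F07535g was the strongest of the 10 in overexpression and wild type, at 2727 RPKM in overexpression, 3.71 RPKM in the deletion and 380 RPKM in wild type. YALI0C15488g was next in both of these libraries, at 702 RPKM in overexpression, 6.79 RPKM in the deletion and 113 RPKM in wild type. It was 6.19-fold higher in overexpression (6.05 to 6.33) and 16.7-fold lower in the deletion (15.4 to 18.2), both against wild type. For both genes the step down without MHY1 was the larger one on the scale of RPKM ratios.

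YALI0E31108g was at 226 RPKM in overexpression, 5.84 RPKM in the deletion and 42.7 RPKM in wild type. YALI0C02981g was at 192 RPKM in overexpression, 4.17 RPKM in the deletion and 24.8 RPKM in wild type. YALI0E29271g was at 117 RPKM in overexpression, 1.16 RPKM in the deletion and 18.6 RPKM in wild type. These 3 genes were moderate in wild type and passed 100 RPKM in overexpression.

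YALI0E07766g was at 119 RPKM in overexpression, 1.61 RPKM in the deletion and 9.58 RPKM in wild type. Its step up of 12.4-fold (11.3 to 13.6) was larger than its step down of 5.96-fold (4.80 to 7.45), as it also was for YALI0C02981g at 7.74-fold up and 5.95-fold down. YALI0F21285g was at 77.5 RPKM in overexpression, 0.308 RPKM in the deletion and 7.13 RPKM in wild type. YALI0C06259g was at 68.4 RPKM in overexpression, 0.648 RPKM in the deletion and 9.14 RPKM in wild type. Both were below 1 RPKM without MHY1. YALI0D15906g was at 63.7 RPKM in overexpression, 0.379 RPKM in the deletion and 7.69 RPKM in wild type, so that 5 of the 10 genes were under 10 RPKM in wild type and at 63.7 RPKM or more with extra MHY1.

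**Figure D3:**
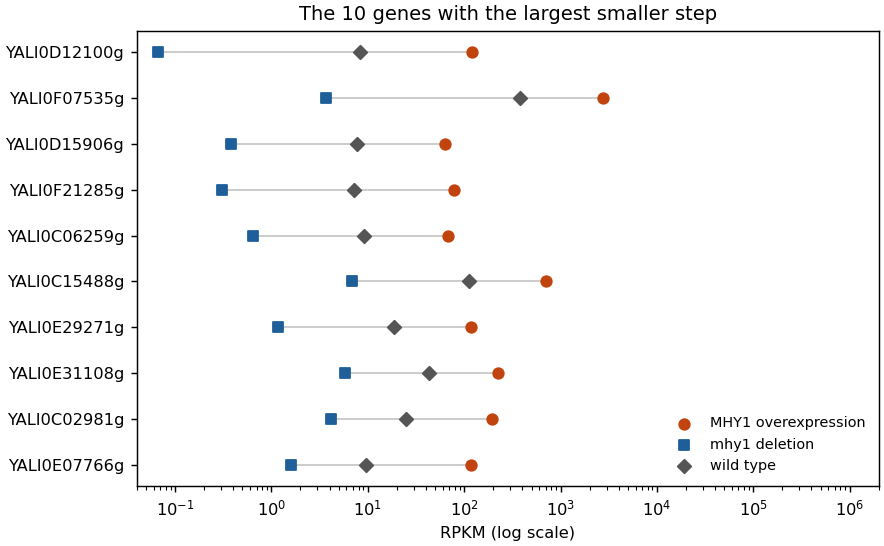
RPKM (horizontal axis, log scale) of the 10 genes with the largest smaller step, in overexpression (circles), deletion (squares) and wild type (diamonds), with a line joining the extremes of each gene. YALI0D12100g spans 0.0668 to 120 RPKM and YALI0F07535g 3.71 to 2727 RPKM.

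The most abundant members included genes at 1.5% of wild type or less in the deletion and genes still well expressed there. YALI0E18722g was at 1430 RPKM in overexpression, 6.58 RPKM in the deletion and 449 RPKM in wild type, 68.3-fold lower in the deletion than in wild type (60.2 to 77.7). YALI0A00176g was at 1383 RPKM in overexpression, 2.15 RPKM in the deletion and 465 RPKM in wild type. In overexpression and wild type both stood at levels close to those of MHY1 itself. YALI0C10208g, in contrast, was at 2018 RPKM in overexpression, 313 RPKM in the deletion and 974 RPKM in wild type, so that 32.2% of its wild-type level was left without MHY1. YALI0B19756g was at 1284, 138 and 468 RPKM in overexpression, deletion and wild type. YALI0C06424g was at 1014, 115 and 493 RPKM in the same libraries, and YALI0A03597g at 668, 154 and 322 RPKM. These 4 genes were at 23.3% to 47.7% of wild type in the deletion library.

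In the deletion library 6 members were listed at 0, where up to 3 reads would be possible. YALI0C15268g was at 86.0 RPKM in overexpression and 36.4 RPKM in wild type. With the deletion set at a floor of 3 reads, it was 199.6-fold lower there than in wild type. Its counting interval, taken from 0 reads, starts at 162-fold. YALI0C19558g was at 101 RPKM in overexpression and 24.3 RPKM in wild type. By the same floor it was 145.8-fold lower in the deletion, and its counting interval starts at 118-fold. These values rest on 479 and 350 wild-type reads. The other 4 were weak: YALI0C06908g at 22.3 RPKM in overexpression and 1.53 in wild type, YALI0A20548g at 13.3 and 1.25, YALI0D01023g at 8.99 and 2.50, and YALI0F21703g at 5.04 and 1.29. Among them YALI0A20548g had 5 reads in wild type over a recovered length of 84 bp. The counting interval of its difference starts at 1.15-fold, so it does not exclude a difference under 2-fold. If that length is a whole fraction of the true one, these reads are a lower limit too.

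The level left in the deletion library varied widely among the 106 genes. The median member kept 19.2% of its wild-type RPKM, and the highest share kept was 48.5%. Under 5% of wild type were 23 members, at 5% to 25% were 41, and at 25% or more were 42. The fold over wild type in overexpression had a median of 2.93 and ranged from 2.03 to 129, and 73 members exceeded the 2.48-fold step of MHY1 itself while 33 did not. Of the 23 genes under 5% of wild type in the deletion, 6 were above 5-fold in overexpression, with a median fold of 3.27. Of the 41 genes at 5% to 25%, 17 were above 5-fold, with a median fold of 3.66. Of the 42 genes at 25% or more, 3 were above 5-fold, with a median fold of 2.54. Across the 100 members above 0 in the deletion, the log2 RPKM ratios of the steps down and up had a Pearson correlation of 0.12. Both ratios share the wild-type library, and the rule cut both of them off at 2-fold, so this value is given as a description. On the RPKM ratio scale the step between deletion and wild type was the larger one for 77 members, with the 6 at 0 counted here, and the step between overexpression and wild type for 29. On the log2(RPKM + 1) scale these numbers were 59 and 47. The rule used this second scale. For weak genes it asked a larger RPKM ratio of the step down than of the step up, which bears on the first split.

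**Figure D4:**
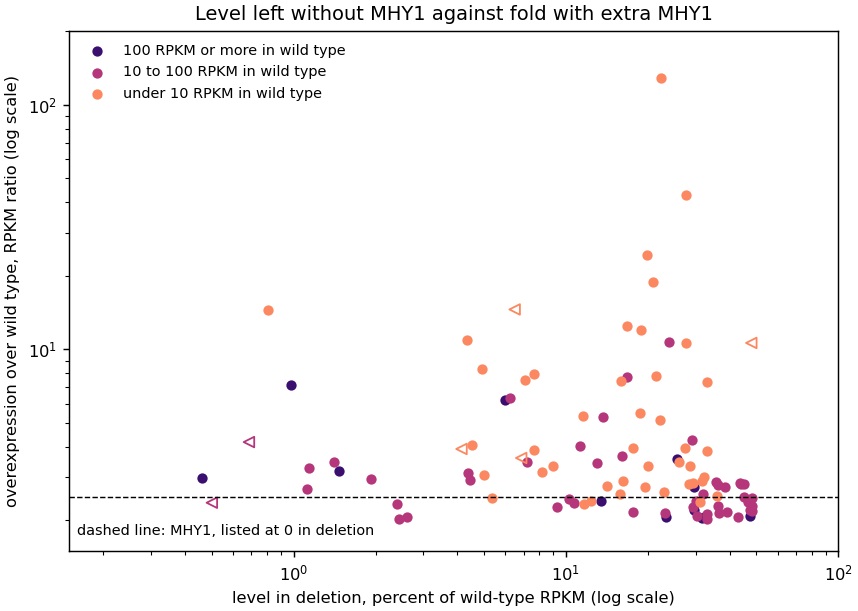
Fold of overexpression over wild type (vertical axis, RPKM ratio, log scale) against the level in the deletion library as a percentage of wild type (horizontal axis, log scale) for the 106 genes, coloured by wild-type level; open triangles mark genes listed at 0, drawn at the share that 3 reads would give. The dashed line is the 2.48-fold step of MHY1, and the 4 largest folds belong to genes under 10 RPKM in wild type.

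The largest folds in overexpression belonged to genes that were weak in wild type. The 26 members above 5-fold in overexpression had a median of 6.31 RPKM in wild type, and 20 of them were under 10 RPKM there. The other 80 members had a wild-type median of 20.1 RPKM. By wild-type level, 47 members were under 10 RPKM, 47 at 10 to 100 RPKM and 12 at 100 RPKM or more. These were 3.93%, 1.39% and 0.827% of the compared genes of each level. Weak genes as a whole leaned the same way: of all compared genes under 10 RPKM in wild type, 17.1% exceeded wild type by 2-fold or more in overexpression, against 3.90% and 1.65% at the 2 higher levels, and their median log2 ratio was 0.45. Genes under 1 RPKM in wild type entered through a higher value in another library; without them the share was 14.5% and the median 0.38 over the 1010 genes left, which include all 47 weak members. In the deletion library 7.18%, 5.82% and 4.76% of these levels were at least 2-fold lower than in wild type. A gene under 1 RPKM in wild type could not meet the deletion line. Of the 1010 genes at 1 to 10 RPKM, 8.51% met it, and 4.65% were members. The part of this lean in the folds of the weak members was not tested.

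Reads limited some of the weak members. Fewer than 10 reads were recovered for 0 members in overexpression, 13 in the deletion and 1 in wild type, with medians of 4376, 120.5 and 641 reads. For 89 of the 106 members the counting intervals excluded a 2-fold ratio on both sides. On the overexpression side alone this held for 95 and on the deletion side alone for 100.

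A smaller set of 41 members met the rule under every other pseudocount, scaling and filter tried and also had both counting intervals beyond 2-fold. The 10 genes with the largest smaller step were among them, as the size of their steps made likely. Of the 41, 8 were under 10 RPKM in wild type, 26 at 10 to 100 RPKM and 7 at 100 RPKM or more. Examples besides those above were YALI0B20306g, at 582 RPKM in overexpression, 42.0 RPKM in the deletion and 164 RPKM in wild type, and YALI0D09185g, at 137, 0.567 and 50.8 RPKM in the same libraries. YALI0F25839g was at 94.2, 0.327 and 28.8 RPKM, like YALI0D09185g below 1 RPKM in the deletion. These 3 examples were chosen after their values were seen.

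The position of the genes played no part in the rule. The 106 genes lay on all 6 chromosomes, and their share of the compared genes was highest on chromosome C, at 26 of 858 (3.03%), and lowest on chromosome D, at 11 of 1048 (1.05%). Over all chromosomes the share was 1.76%. Chromosomes A, B, F and E held 12, 17, 21 and 19 members, or 2.09%, 1.89%, 1.66% and 1.37% of their compared genes. Chromosome C thus held 24.5% of the members and 14.2% of the compared genes.

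Neighbours in identifier order were found as 3 pairs, 6 members in all, and no run of 3 or more. Beside these 6, 187 other compared genes lay directly next to a member. Members were 1.76% of all compared genes, and whether they lay together more or less often than that share gives was not tested. YALI0A15103g was at 46.8 RPKM in overexpression, 5.81 RPKM in the deletion and 18.2 RPKM in wild type, and YALI0A15125g next to it at 36.4, 4.54 and 12.8 RPKM. The 2 genes of this pair stood at similar levels in every library. YALI0E33561g was at 9.84, 1.29 and 4.13 RPKM in overexpression, deletion and wild type, and its neighbour YALI0E33583g at 9.32, 1.02 and 3.23 RPKM. In the pair of YALI0E20229g (11.3, 0.222 and 2.91 RPKM) and YALI0E20251g (109, 14.3 and 39.4 RPKM) the second gene was the stronger by far in each of these libraries. The sources used here give neither overlaps between neighbouring genes nor the strand of the libraries, so reads of neighbours may not be fully separate. At the chromosome ends, 5 members were among the first or last 20 identifiers, 2.25% of the compared genes there, where the share over all chromosomes was 1.76%. Of these, 4 were at low-number ends (3.70% of 108 compared genes) and 1 at a high-number end (0.877% of 114). They included YALI0A00110g, the first identifier of chromosome A, at 166 RPKM in overexpression, 2.32 RPKM in the deletion and 52.9 RPKM in wild type, and YALI0A00176g, at place 4 of the same chromosome, described above.

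Most genes beside the members were within 2-fold of wild type in both engineered strains. The 187 other genes directly next to a member had a median log2 ratio of 0.21 in overexpression and −0.08 in the deletion, both against wild type, where genes over 5 identifiers away had 0.14 and −0.02. Of these 187 genes, 11 (5.88%) were higher in overexpression by 2-fold or more and 12 (6.42%) lower in the deletion by as much. Among the 5092 genes over 5 identifiers away the shares were 3.97% and 4.12%, and among all compared genes, members included, 5.98% and 5.83%. Between overexpression and deletion, 19.3% of the direct neighbours and 13.2% of the genes over 5 identifiers away were at least 2-fold higher in overexpression. These shares are a description, and neighbours may share reads. Changes the opposite way by 2-fold or more were few among direct neighbours, as they were among all compared genes. In the deletion 4 of the 187 (2.14%) were higher, where 1.66% of all compared genes were. In overexpression 2 (1.07%) were lower, where 2.47% of all compared genes were. YALI0E07744g, next to YALI0E07766g, was at 23.1 RPKM in overexpression, 198 RPKM in the deletion and 18.3 RPKM in wild type, so that without MHY1 it was higher where YALI0E07766g was lower. YALI0C23452g instead was far lower in the deletion, as was the member next to it, YALI0C23474g, but only 1.28-fold above wild type in overexpression. It was at 1070 RPKM in overexpression, 1.23 RPKM in the deletion and 837 RPKM in wild type. Its neighbour, a member, was far weaker at 25.4, 0.658 and 8.08 RPKM, and both were at 8.14% of wild type or less in the deletion library. YALI0C06237g, next to YALI0C06259g, was at 553 RPKM in overexpression, 2688 RPKM in the deletion and 2257 RPKM in wild type, lower with extra MHY1 where its neighbour was higher. These 3 neighbours were chosen after their values were seen.

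**Figure D5:**
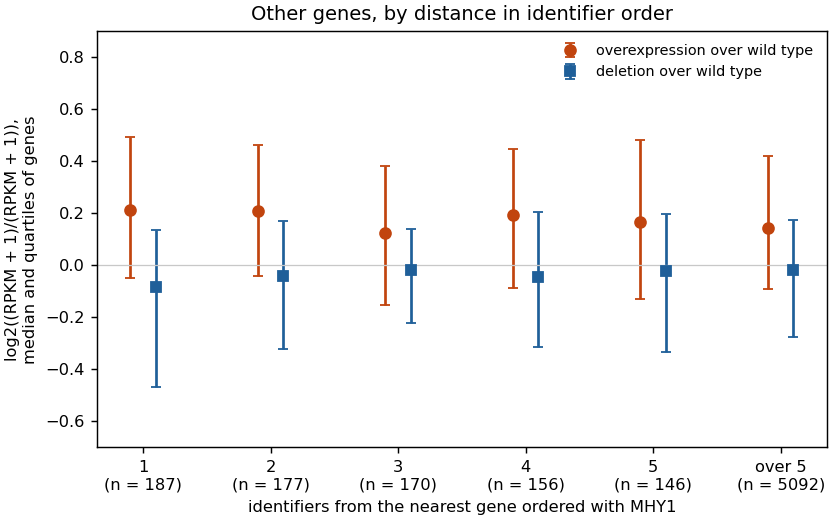
Median log2 ratio, with quartiles over genes, of overexpression to wild type (circles) and deletion to wild type (squares) for non-members by their distance in identifiers from the nearest of the 106 genes. Directly beside a member the medians are 0.21 and −0.08, and over 5 identifiers away 0.14 and −0.02, with quartile ranges that overlap widely.

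One member lay close to MHY1 itself. YALI0B21626g, 2 identifiers after MHY1, was at 94.0 RPKM in overexpression, 15.3 RPKM in the deletion and 46.4 RPKM in wild type, 2.03-fold higher and 3.03-fold lower than wild type. It met the 2-fold line in overexpression only narrowly. The gene between them, YALI0B21604g, was at 114 RPKM in overexpression, 98.0 RPKM in the deletion and 80.6 RPKM in wild type, so it did not follow MHY1. The sources used here do not give the extent of the deleted or the overexpressed stretch.

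The members were of ordinary length. Their recovered coding lengths had a median of 1020 bp (quartiles 695 and 1532 bp), against 1161 bp (699 and 1773 bp) for the other compared genes. Under 600 bp were 20 members (18.9%) and 19.5% of the other genes. The longest members were YALI0B12188g at 3915 bp and YALI0B21626g at 3594 bp, and the shortest were YALI0A20548g at 84 bp and YALI0D16181g at 192 bp. YALI0D16181g was at 63.3 RPKM in overexpression, 1.31 RPKM in the deletion and 18.3 RPKM in wild type, the last resting on 167 reads. A recovered length can be a whole fraction of the true one, so the shortest lengths, and the reads recovered with them, are lower limits.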

How the data were processed

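The values are RPKM per the file headers, made by the authors for 6448 identifiers in each of 3 libraries. The submitters' processing notes list TopHat2 2.1.1 and Cufflinks 2.2.1, with no role, and a mouse genome build that cannot hold these identifiers; which yeast build, annotation and counting settings were used, and how reads shared by similar genes were counted, is not given. Per the labels' protocols, 1 µg of RNA entered each TruSeq library. None of the identifiers matched the RefSeq gene table of assembly ASM176148v1 (0 matched), so no names, roles or sequences are given.

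The members and lists were chosen with earlier results of these data known. Log2 ratios used RPKM plus a pseudocount of 1, over the 6035 genes at 1 RPKM or more in any library; folds printed as such are RPKM ratios. On this scale folds of weak genes are understated. Low RPKM values lie on whole-read steps, from which library totals, coding lengths (multiples of 3 first) and reads were recovered; 99.98% of non-zero values were whole reads to within 0.01. Tested on simulated data for 6392 genes, 92.4% of lengths came back exactly and 99.95% exactly or as a whole fraction. Computed from the true simulated reads and totals, 95.2% of intervals held the true ratio of deletion to wild type. Intervals from recovered reads were not tested in this way. For genes listed at 0 the floor was 3 reads in that library. With 1 library per strain no test was run.

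Named genes were MHY1; the 10 members with the largest smaller step; the 5 highest members in each library; members at 0 in the deletion; adjacent members; the 5 genes nearest each side of each line; and the 5 longest and shortest members, from which examples are printed. The split by wild-type level, the distances to other genes and the set of 41 were added after values were seen. Python 3.11.15, pandas 2.3.3 and SciPy 1.17.1 were used.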

Additional observations from a re-analysis of the deposited data

How the results depend on the processing

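The number of genes ordered with MHY1 depended on the pseudocount and the fold asked for. It was 106 as reported, 199 with a pseudocount of 0.1 RPKM (all 106 among them) and 46 with a pseudocount of 5 RPKM. It was 323 at 1.5-fold and 11 at 4-fold on each side. The direction of these moves follows from their construction. With median of ratios scaling, upper-quartile scaling and centring on the median of all genes, 82, 84 and 80 of the 106 remained, and with a filter at 10 RPKM 93 did. A filter below 1 RPKM could not add genes. Asking for counting intervals of the RPKM ratio beyond 2-fold gave 117 genes, 89 of them members. With a pseudocount of 5 RPKM, 77 members exceeded wild type by 2-fold in overexpression and 56 were below it by 2-fold in the deletion. All 106 stayed at least 2-fold higher in overexpression than in the deletion under the other pseudocounts and scalings. The rule had set these libraries at least 4-fold apart on the log2(RPKM + 1) scale, so this was likely from the start. Of 620 values of named members under these alternatives, 549 stayed past 2-fold and 71 fell short of it; a change of sign was hardly possible for genes chosen beyond 2-fold. With at most 1 identifier between them, 12 members were in runs. The first or last 50 identifiers of a chromosome held 13 members, or 2.33% of the compared genes there. Over all chromosomes the share was 1.76%. No paired analysis was possible because each strain had 1 library, which also allowed no replicate to be left out. The promoter motif was not run, since no promoter sequence was used here. Few reads limit the weak members, 13 of which had under 10 reads in the deletion library.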
